A study of Arabidopsis thaliana with 24 samples.

Results

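WNK7 (AT1G49160) and AT4G32950 are a protein kinase gene and a phosphatase gene whose transcripts were far more abundant in Arabidopsis thaliana roots 35 min after nitrate than before it. They were taken by locus from the probe sets that name 1 gene, and make up 2 of the 13490 such probe sets and of the 22714 measured in all. Root RNA was hybridised to 24 Affymetrix ATH1 arrays, 3 biological replicates for each of 8 groups. The genotypes were the double mutant nlp6nlp7, the single mutants nlp7 and nlp6, and Col-0, the line used as wild type. The labels name no alleles. All seedlings had 9 days with 12.5 mM ammonium succinate as nitrogen source, at pH 5.5 before harvest, and roots were taken either 35 min after 25 mM KNO3 or at 0 min, before it. Each replicate pooled about 200 seedlings from 3 boxes. No group received potassium without nitrate, so nitrate, potassium, elapsed time and handling cannot be told apart in any response below.

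WNK kinases are serine/threonine kinases named "with no lysine" because the catalytic lysine common to other kinases is not at its usual place. In Arabidopsis, members of this family have been linked to the circadian clock and to flowering time. AT4G32950 is known as a gene of the protein phosphatase 2C family, metal-dependent enzymes that remove phosphate from serine and threonine. Other members of that family act in abscisic acid signalling, and in Arabidopsis the phosphatase ABI2 acts on a kinase complex of nitrate sensing. The tables used here give AT4G32950 a locus and no symbol. NLP6 and NLP7 encode transcription factors of the NIN-like family, and NLP7 is known to gather in the nucleus when nitrate arrives.

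The pair was chosen by values measured on these arrays, for a high response in Col-0 and for a response kept in nlp7 and lowered in nlp6nlp7. Values of Col-0, nlp7 and nlp6nlp7 are therefore descriptions and carry no test. The nlp6 arrays were not part of that choice, so the response in nlp6 was tested. That test is not independent of the choice. Of 22714 probe sets, only 2 were called for a response in nlp6 that differs from Col-0. A pair picked for a high response in Col-0 was thus likely to rise in nlp6 too. The model also takes its spread from all arrays, those used in the choice included. The array values followed this description for AT4G32950 and went against it for WNK7, whose response in nlp7 was the smallest of the 4 genotypes.

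The 24 arrays had medians of 163 to 196 intensity units, and correlations between replicates of a group were 0.979 or more. Replicate 1 of nlp7 stood apart from the other nlp7 arrays at both times, with scores of -37.26 at 35 min and -34.83 at 0 min on a principal component that took 8.89% of the variance, so the main values of nlp7 are also given without it, a setting chosen after seeing the data. NLP6 and NLP7 themselves have no probe set with a name in the tables used here, and loss of their transcripts was not analysed here. EXPA7, a root hair expansin gene, lay between 361 and 649 on all 24 arrays. Of the 3 shoot markers RCA was brighter than the median of its array, with 201 to 400, while LHCB4.1 had 54 to 242 and PRK 1 to 71. The lowest value in the deposited data is 1, so PRK reached the floor. In these bulk samples, fewer cells that express a gene and less RNA of it per cell cannot be told apart.

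WNK7 had intensities of 1004, 683 and 997 in nlp6nlp7 roots at 35 min, against 81, 67 and 78 at 0 min. In nlp7 roots it had 977, 1020 and 808 at 35 min, against 117, 116 and 91 at 0 min. In nlp6 roots it had 1431, 1307 and 1059 at 35 min, against 56, 50 and 54 at 0 min. Every array at 35 min was thus far above every array at 0 min in each of these mutants. In Col-0 roots the values were 1239, 1343 and 1112 at 35 min, against 77, 77 and 66 at 0 min. Col-0 showed the same clear gap between the times.

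AT4G32950 had intensities of 1657, 1606 and 2144 in nlp6nlp7 roots at 35 min, against 189, 127 and 166 at 0 min. In nlp7 roots it had 7564, 4223 and 4545 at 35 min, against 331, 223 and 303 at 0 min. The 7564 of replicate 1 is the highest of all 24 arrays, and this replicate is the one that stands apart. In nlp6 roots the values were 5805, 5337 and 4480 at 35 min, against 286, 237 and 312 at 0 min. In Col-0 roots they were 4584, 4878 and 5280 at 35 min, against 186, 149 and 301 at 0 min. The times did not overlap in any genotype for this gene either.

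**Figure D1:**
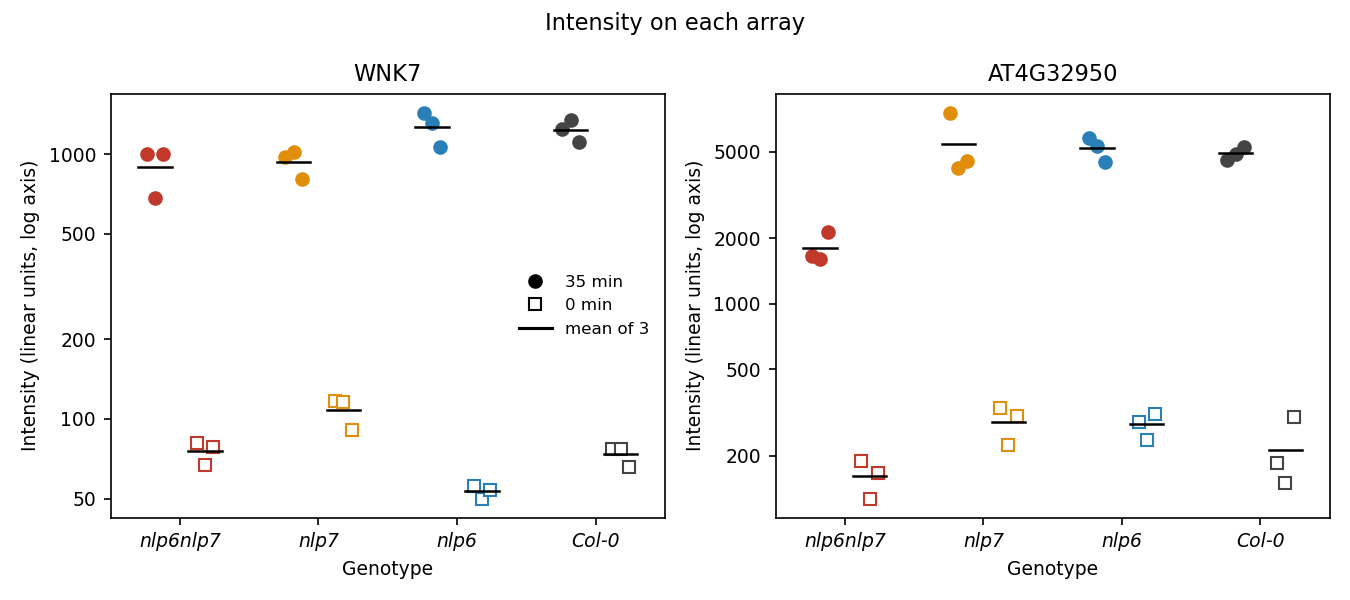
Intensity of WNK7 (left) and AT4G32950 (right) on each of the 24 arrays, on a log axis, by genotype, with 35 min as filled circles, 0 min as open squares and lines at the means of 3 arrays. All 35 min arrays lie above all 0 min arrays, and the 3 nlp6nlp7 arrays of AT4G32950 at 35 min (1606 to 2144) lie below the other 9 (4223 to 7564).

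Both genes had all 3 arrays at 35 min above all 3 at 0 min in all 4 genotypes. Among all 22714 probe sets this holds for 8.17% in nlp6nlp7, 6.34% in nlp7, 7.59% in nlp6 and 10.1% in Col-0. The choice of the pair used all of these but nlp6.

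In nlp6 roots, the genotype left out of the choice, both transcripts rose strongly after nitrate. WNK7 averaged 1266 ± 189 at 35 min and 53.3 ± 3.06 at 0 min (SD, n = 3 each), a ratio of means of 23.7. Its response, the difference between the times of log2 values after adding 26 intensity units, was 4.02 ± 0.14 (SE, limma adjusted p = 5.3e-14). AT4G32950 averaged 5207 ± 672 at 35 min and 278 ± 38.1 at 0 min, a ratio of 18.7, and its response was 4.1 ± 0.23 (limma adjusted p = 5.2e-11). Each p is two-sided and adjusted over all probe sets, with 0.05 as the threshold, and 4.13% of all probe sets were called higher in nlp6. Of the 22714 responses in nlp6, that of AT4G32950 was the 11th highest and that of WNK7 the 13th. The median response of all probe sets there was -0.08.

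Relative to Col-0, the nlp6 response was larger for WNK7 and smaller for AT4G32950, both within 2 standard errors. The difference of nlp6 minus Col-0 was 0.36 ± 0.20 for WNK7 and -0.32 ± 0.32 for AT4G32950, on the log2 scale. For WNK7 the gap comes with a lower start, since the 35 min means were 1266 ± 189 in nlp6 and 1231 ± 116 in Col-0, while the 0 min means were 53.3 ± 3.06 in nlp6 and 73.3 ± 6.35 in Col-0. For AT4G32950 the value depends on single Col-0 arrays at 0 min: leaving out Col-0 replicate 3 at 0 min (301) gave -0.57, and leaving out replicate 2 (149) gave -0.12.

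The responses of the other genotypes, given as descriptions, ordered the genotypes differently for each gene. For WNK7 they were 3.17 in nlp6nlp7 and 2.84 in nlp7, against 3.66 in Col-0, each ± 0.14 (SE). These are changes of 8.97-fold, 7.17-fold and 12.6-fold on intensity plus 26. The order of the 4 genotypes for WNK7, from low to high, was nlp7, nlp6nlp7, Col-0 and nlp6. For AT4G32950 the responses were 3.29 in nlp6nlp7 and 4.1 in nlp7, against 4.42 in Col-0, each ± 0.23. These are 9.81-fold, 17.1-fold and 21.5-fold. For this gene nlp6nlp7 had the lowest response and Col-0 the highest, with nlp7 and nlp6 both at 4.1.

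**Figure D2:**
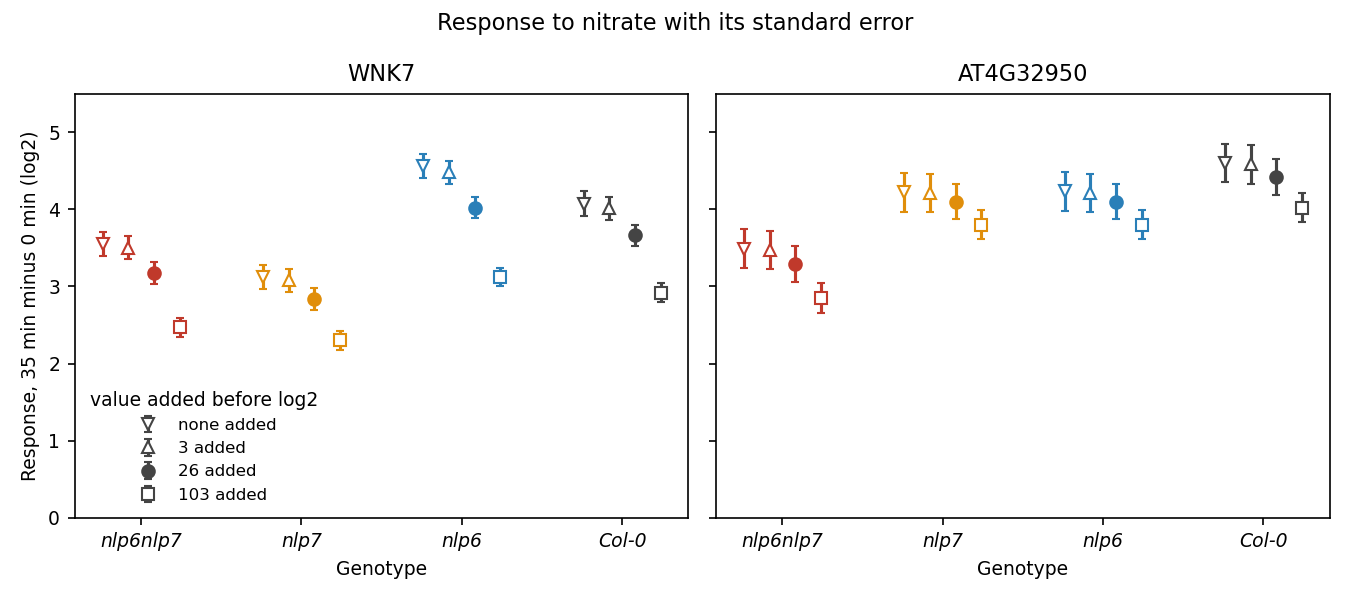
Response at 35 min minus 0 min on the log2 scale for WNK7 (left) and AT4G32950 (right) in each genotype, with standard errors from the limma model, and with 0, 3, 26 or 103 intensity units added before log2. The WNK7 response is lowest in nlp7 and the AT4G32950 response lowest in nlp6nlp7 with each value added.

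The size of the WNK7 response depends on the value added, because its 0 min intensities are low. With nothing added it was 3.55 in nlp6nlp7, 3.12 in nlp7, 4.56 in nlp6 and 4.07 in Col-0. With 103 added, the 40th percentile of all values, it was 2.47, 2.30 and 3.12 in those mutants, against 2.92 in Col-0. The order of the 4 genotypes was the same with 0, 3, 26 and 103 added. With 103 added, the AT4G32950 response in nlp6nlp7 was 2.85 and that in nlp6 3.80, and each moved by more than its spread between replicates (0.34 and 0.26).

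At 35 min AT4G32950 was lower in the double mutant than in any other genotype. Its mean at 35 min was 1802 ± 297 in nlp6nlp7, which is 36.7% of the 4914 ± 349 in Col-0 (SD, n = 3 each). The log2 level of nlp6nlp7 minus that of Col-0 was -1.44 ± 0.23 (SE). The single mutants averaged 5444 ± 1843 (nlp7) and 5207 ± 672 (nlp6), and their arrays overlapped those of Col-0. Without replicate 1 the nlp7 mean was 4384, or 89.2% of that in Col-0. All 3 nlp6nlp7 arrays lay below all 3 of Col-0, of nlp7 and of nlp6, as did 10.8%, 9.91% and 8.70% of all probe sets in the same comparisons. The shoot markers differed between these groups too. LHCB4.1 had 54, 60 and 113 in nlp6nlp7 at 35 min, below all 3 arrays of nlp7 (140, 213 and 170) and of Col-0 (192, 141 and 137), while nlp6 (129, 242 and 96) overlapped. RCA in nlp6nlp7 (221, 267 and 259) lay below nlp7 and overlapped nlp6 and Col-0, and PRK overlapped in each comparison. The sum of the 3 markers was 289 to 387 in nlp6nlp7, 469 to 565 in nlp7 and 302 to 531 in nlp6, against 416 to 441 in Col-0. The part of shoot tissue in the AT4G32950 and WNK7 levels at 35 min was not tested.

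WNK7 showed a different order at 35 min, with nlp6nlp7 close to nlp7. It averaged 895 ± 183 in nlp6nlp7 and 935 ± 112 in nlp7, against 1231 ± 116 in Col-0, which is 72.7% and 75.9% of the Col-0 mean. The log2 level minus that of Col-0 was -0.47 ± 0.14 in nlp6nlp7 and -0.39 ± 0.14 in nlp7. The arrays of nlp6nlp7 and nlp7 overlapped each other, with a difference of -0.08 ± 0.14 between them. In both mutants all 3 arrays lay below all 3 of Col-0 and all 3 of nlp6. For nlp6nlp7 this held for 10.8% of all probe sets against Col-0 and 8.70% against nlp6. For nlp7 it held for 7.07% of all probe sets against Col-0 and 5.61% against nlp6. The arrays of nlp6 and Col-0 overlapped (difference 0.03 ± 0.14).

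Before nitrate, WNK7 was higher in nlp7 and lower in nlp6 than in Col-0. The 0 min mean was 108 ± 14.7 in nlp7, which is 147% of the 73.3 ± 6.35 in Col-0, and 53.3 ± 3.06 in nlp6, which is 72.7% of it. In log2 the level differed from Col-0 by 0.43 ± 0.14 in nlp7 and by -0.32 ± 0.14 in nlp6. The 3 arrays of nlp7 lay above, and those of nlp6 below, all 3 of Col-0, as did 6.87% and 7.27% of all probe sets. The double mutant, at 75.3 ± 7.37, overlapped Col-0 and lay between the single mutants. Its 3 arrays were above those of nlp6, as for 14.4% of probe sets, and below those of nlp7, as for 8.51%. Between the single mutants, the 0 min level in nlp7 was 0.75 ± 0.14 above that in nlp6, and 7.64% of probe sets had all 3 nlp7 arrays above all 3 of nlp6. The shoot marker RCA was also higher at 0 min on all 3 nlp7 arrays, at 400, 276 and 308, against 259, 262 and 206 for Col-0. The other shoot markers overlapped, with 216, 134 and 89 (nlp7) against 152, 90 and 110 (Col-0) for LHCB4.1, and 4, 19 and 17 (nlp7) against 33, 16 and 22 (Col-0) for PRK. The part of shoot tissue in the WNK7 level was not tested.

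Before nitrate, AT4G32950 was lowest in the double mutant and highest in the single mutants. The 0 min mean was 161 ± 31.3 in nlp6nlp7, 286 ± 56.0 in nlp7 and 278 ± 38.1 in nlp6, against 212 ± 79.3 in Col-0. The Col-0 arrays, from 149 to 301, overlapped those of every mutant. The arrays of nlp6nlp7 lay below all those of nlp7 and of nlp6, as did 8.51% of all probe sets against nlp7 and 12.1% against nlp6.

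Both genes had a smaller response in nlp6nlp7 than in Col-0, with a difference of -1.13 ± 0.32 for AT4G32950 and -0.49 ± 0.20 for WNK7. With each array left out in turn, the difference lay between -1.38 and -0.93 for AT4G32950 and between -0.59 and -0.32 for WNK7. The WNK7 value of -0.32 came without replicate 2 of nlp6nlp7 at 35 min, the array at 683. Under quantile normalization the difference in nlp6nlp7 was -0.31 ± 0.21 for WNK7 and -0.97 ± 0.32 for AT4G32950. In nlp7 the difference from Col-0 was -0.32 ± 0.32 for AT4G32950 and -0.82 ± 0.20 for WNK7. Without replicate 1 of nlp7 at both times, these were -0.48 and -0.80, from responses of 3.94 for AT4G32950 and 2.86 for WNK7. Single arrays moved the AT4G32950 difference in nlp7. It was -0.59 when only the 35 min array of nlp7 replicate 1 was left out. Leaving out a 0 min array of Col-0 gave -0.58 for replicate 3 and -0.13 for replicate 2. How fully nlp7 kept this response is thus known only within that range.

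Loss of NLP6 in an nlp7 background went with differences of opposite sign in the 2 genes, but that of WNK7 was smaller than its spread between replicates (0.40). The choice of the pair used this contrast, so neither difference was tested. A lower response of AT4G32950 in nlp6nlp7 than in nlp7 follows from that choice. The response in nlp6nlp7 minus that in nlp7 was 0.32 ± 0.20 for WNK7 and -0.81 ± 0.32 for AT4G32950. With each array left out in turn it lay between 0.22 and 0.50 for WNK7 and between -0.96 and -0.54 for AT4G32950. The 0.50 came without nlp6nlp7 replicate 2 at 35 min and the -0.54 without nlp7 replicate 1 at 35 min. Without nlp7 replicate 1 at both times the values were 0.31 and -0.65. The same loss of NLP7 in an nlp6 background went with like differences, -0.85 ± 0.20 for WNK7 and -0.81 ± 0.32 for AT4G32950. For WNK7 the double mutant lay near the sum of the single mutants: its departure from additivity, nlp6nlp7 minus nlp6 minus nlp7 plus Col-0, was -0.03 ± 0.28 for the response and -0.11 ± 0.20 for the 35 min level. For AT4G32950 the departure was -0.49 ± 0.45 for the response, -1.62 ± 0.32 for the 35 min level and -1.13 ± 0.32 for the 0 min level. Without nlp7 replicate 1 these were -0.33, -1.36 and -1.03. Both levels of AT4G32950 in nlp6nlp7 were thus below the sum, and by amounts that leave a smaller departure in the response, which is their difference.

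In intensity units, the gain between the times was 819 in nlp6nlp7, 827 in nlp7 and 1212 in nlp6 for WNK7, against 1158 in Col-0. These gains are 70.8%, 71.4% and 105% of that in Col-0. For AT4G32950 the gain was 1642 in nlp6nlp7, 5158 in nlp7 and 4929 in nlp6, against 4702 in Col-0, or 34.9%, 110% and 105% of it. The nlp7 gain lay above that of Col-0 only with replicate 1, and without it was 4121, or 87.6% of it. For WNK7 the nlp7 gain without replicate 1 was 810, or 70.0%. On this linear scale the double mutant lost most of the AT4G32950 gain, while on the log2 scale its response was still 74.5% of that in Col-0.

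Set beside all 419 probe sets that were called at least 2-fold higher in Col-0, the share of the log2 response left in nlp6nlp7 was not low for either gene. It was 86.5% for WNK7 and 74.5% for AT4G32950, with a median of 59.7% and quartiles of 37.5% and 83.5%. In nlp7 the share was 77.6% for WNK7 and 92.7% for AT4G32950, with a median of 66.8%. AT4G32950 kept more of its response in nlp7 than 394 of the 419, and WNK7 more than 304. Without nlp7 replicate 1 these shares were 89.2% and 78.1%. As a difference from Col-0, the -0.82 of WNK7 in nlp7 was wider than the median of -0.54, and 100 of the 419 had a wider one. Likewise, the -1.13 of AT4G32950 in nlp6nlp7 was wider than the median of -0.59, and 76 of the 419 had a wider one. Since the Col-0 arrays that picked the 419 also enter every share, these values describe and do not test.

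The other WNK kinase genes that could be named did not pass the test after nitrate. Of the 10 other loci on the list of WNK kinases, 2 have a probe set with 1 name. WNK9 had responses of -0.30 ± 0.16 in nlp6nlp7, -0.05 in nlp7, -0.13 in nlp6 and -0.11 in Col-0. AT5G55560 had -0.09 ± 0.13, 0.06 and 0.09 in those mutants, and 0.01 in Col-0. By limma 0 of these 2 were called in any response or response difference from Col-0, and 0 had an unadjusted p under 0.05. Of all probe sets, 4.65% were called higher and 5.50% lower in Col-0. The 10 listed kinases and calcium sensors of nitrate signalling have no named probe set in the tables used here and were not analysed.

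Among the other phosphatases 2C on the list, AT5G26010 rose in every genotype, and at most 3 others were called in any genotype. The list is not the whole family: AT3G16560, known as a phosphatase 2C gene and not on the list, is among the genes most like AT4G32950 described below. The intensities of AT5G26010 were 191, 187 and 165 in nlp6nlp7, 201, 133 and 108 in nlp7, 120, 181 and 176 in nlp6 and 176, 146 and 169 in Col-0 at 35 min. At 0 min they were 63, 91 and 54 in nlp6nlp7, 87, 57 and 46 in nlp7, 55, 84 and 69 in nlp6 and 46, 32 and 66 in Col-0. All 3 arrays at 35 min lay above all 3 at 0 min in each genotype. The responses of AT5G26010 were 1.14 in nlp6nlp7 (limma adjusted p = 0.00163), 0.95 in nlp7 (0.00850) and 0.95 in nlp6 (0.00471), against 1.38 in Col-0 (1.1e-04), each ± 0.21. Its response differences from Col-0 were -0.24, -0.43 and -0.43, each ± 0.30 and with limma adjusted p of 0.898 or more, which does not show equal responses.

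Of the 67 other loci on the phosphatase list, 36 were measured by 37 probe sets. In Col-0, 2 of the 37 rose and 2 fell, and their median response was 0.00 beside -0.04 over all probe sets. AT3G55050 rose by 0.53 ± 0.09 (limma adjusted p = 4.5e-04). POL (AT2G46920), the poltergeist gene known from stem cell maintenance in meristems, fell by 0.45 ± 0.10 on the log2 scale (-0.45, adjusted p = 0.00318), and AT4G28400 fell by 0.40 ± 0.11 (-0.40, adjusted p = 0.0212). These 4 calls are a share near the background of 4.65% higher and 5.50% lower.

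The mutants gave similar low counts on this list. In nlp6nlp7, 1 of the 37 rose and 1 fell, AT1G67820 (-0.45), where 2.41% of all probe sets rose and 3.00% fell. In nlp7, 2 rose and 0 fell by limma, with 6 of the 37 at an unadjusted p under 0.05 in either direction, where 2.51% rose and 2.61% fell. There AT3G55050 rose by 0.33 beside AT5G26010, and without replicate 1 of nlp7 at both times 1 of the 37 was called. In nlp6, AT3G55050 (0.57) and AT5G26010 rose and POL (-0.39) and AT3G16800 (-0.81) fell, where 4.13% rose and 6.15% fell. No listed phosphatase was called by limma for a response difference from Col-0, with 1, 1 and 0 at an unadjusted p under 0.05 in nlp6nlp7, nlp7 and nlp6, where 0.528%, 0.264% and 0.00881% of all probe sets were called. Outside the calls in Col-0, the widest responses there were those of AT1G07160 (0.59), AT3G16800 (-0.58), AT1G16220 (0.52), AT1G67820 (-0.33), AT1G09160 (0.27) and AT1G48040 (-0.27). AT1G07160 is near the floor, with a mean of 11 over the 24 arrays, below the 26 added. The list was written by locus from background knowledge, and of its measured loci other than AT4G32950 the tables used here give POL and PIA1 a symbol. PIA1, annotated as a phosphatase 2C gene induced by AvrRpm1, had 0.06 in Col-0.

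**Figure D3:**
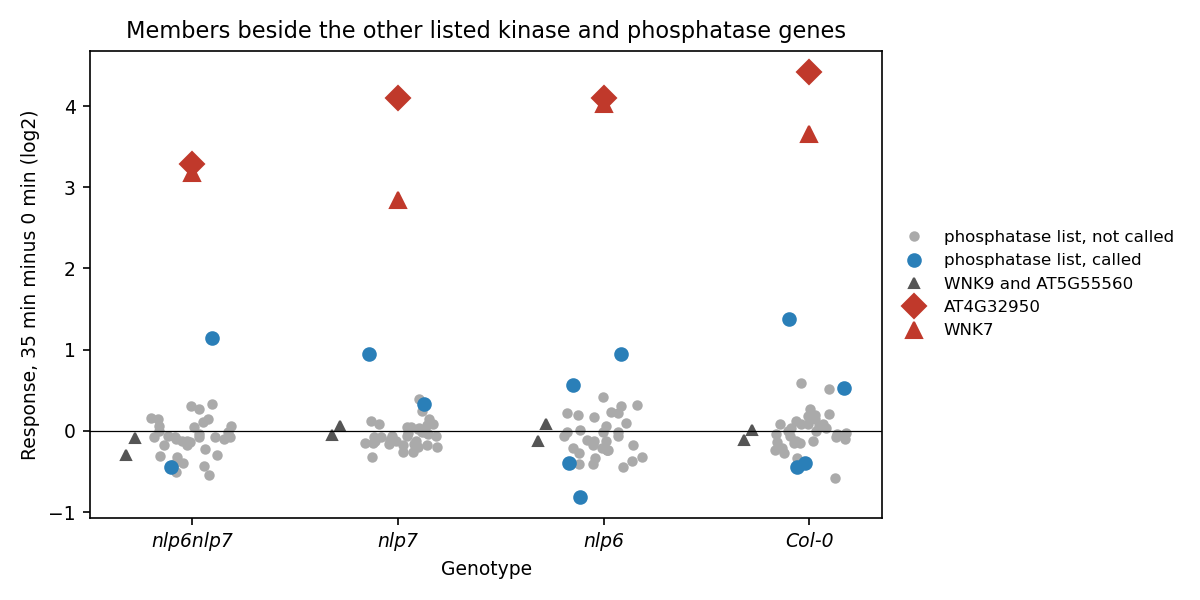
Responses at 35 min minus 0 min on the log2 scale of AT4G32950 (diamonds) and WNK7 (large triangles) in each genotype, beside 37 probe sets of other listed phosphatases (circles, blue where called by limma) and the WNK kinase genes WNK9 and AT5G55560 (small triangles). The listed genes span -0.58 to 1.38 in Col-0, and both members lie above all of them in every genotype.

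The genes with the pattern most like each member were sought among the 216 other named probe sets with a Col-0 response of at least 1 on the log2 scale. Likeness was Pearson's r of the 8 group means of log2 values, a description in which the step between the times outweighs the genotypes. The median r of the 216 was already 0.932 for WNK7 and 0.914 for AT4G32950. Most like WNK7 were AT5G10210 (r = 0.998), AT1G68670 (0.997), AT4G02920 (0.996), AT3G62930 (0.995) and PGM, annotated as a phosphoglycerate mutase gene (0.995). AT5G10210 had responses of 4.73 in nlp6nlp7, 4.37 in nlp7 and 5.61 in nlp6, against 5.37 in Col-0, the same order of genotypes as WNK7. PGM had 4.53, 4.30 and 5.40 in those mutants, against 5.20 in Col-0, and AT1G68670 had 2.05, 1.70 and 2.19, against 2.01.

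Most like AT4G32950 were AT3G16560 (r = 0.987), AT5G51830 (0.986), AT2G48080 (0.986), AT5G42830 (0.985) and AT3G57160 (0.983). AT3G16560, the phosphatase 2C gene outside the list, had 721, 576 and 718 in nlp6nlp7, 1342, 883 and 968 in nlp7, 1268, 1158 and 1391 in nlp6 and 1315, 1257 and 1429 in Col-0 at 35 min. At 0 min it had 115, 170 and 121 in nlp6nlp7, 251, 198 and 235 in nlp7, 187, 147 and 172 in nlp6 and 231, 191 and 260 in Col-0. Its nlp6nlp7 arrays were the lowest at 35 min, as for AT4G32950. Its responses were 2.12 in nlp6nlp7, 2.08 in nlp7 and 2.74 in nlp6, against 2.43 in Col-0, larger than those of AT5G26010 in each genotype. None of these 5 had as wide a step between nlp6nlp7 and nlp7 as AT4G32950 had (3.29 in nlp6nlp7 and 4.1 in nlp7). AT5G51830 had 1.86 in nlp6nlp7, 2.18 in nlp7 and 3.01 in nlp6, against 2.53 in Col-0. AT2G48080 had 3.98, 4.01 and 4.97 in those mutants, against 4.87 in Col-0. AT5G42830 stepped the other way, with 2.25 in nlp6nlp7 and 1.67 in nlp7, against 2.33 in Col-0. WNK7 and AT4G32950 had r = 0.973 with each other, which placed AT4G32950 55th of 216 for WNK7 and WNK7 35th of 216 for AT4G32950.

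**Figure D4:**
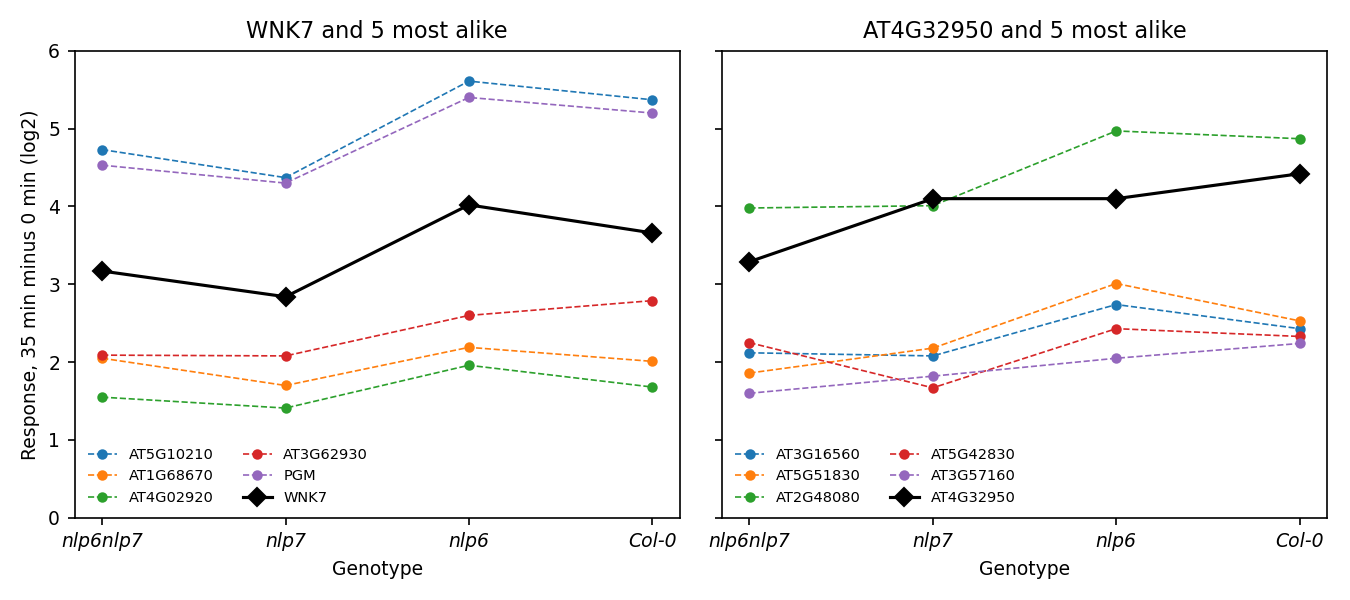
Responses at 35 min minus 0 min on the log2 scale, by genotype, of WNK7 (left, black diamonds) and AT4G32950 (right, black diamonds) with the 5 named probe sets most like each over 8 group means; lines only link points of one gene. The WNK7 panel has its low point in nlp7 for each gene shown, though AT3G62930 is nearly level (2.08 in nlp7 and 2.09 in nlp6nlp7). AT4G32950 has its low point in nlp6nlp7, but in its panel AT3G16560 and AT5G42830 have theirs in nlp7.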

How the data were processed

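The authors deposited 1 intensity per probe set and array, on a linear scale in whole numbers from 1 to 36178, scaled per array so that the mean after trimming 2% at each end is 500.1 to 500.5 on every array. The labels' protocols name the ATH1 array, and the sources used here do not give the software that summarised probes. Of 22776 probe sets, 62 controls were set apart. Probe sets were named from the platform table and the TAIR10.1 gene table, and 13490 name 1 gene, 503 several and 8721 none. No coordinate is given, since no source used here names the array's assembly, and sequences were not used here.

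Log2 was taken after 26 was added to each intensity, the value at the 20th percentile. All 24 arrays entered 1 group-means model in limma 3.58.1 under R 4.3.3 (16 residual degrees of freedom), and p-values were adjusted by Benjamini-Hochberg over 22714 probe sets. The model was tested on simulated data. The members and lists were chosen with earlier results of these data known. Named genes are the members, the listed genes (of the phosphatases, those called and the 10 widest in Col-0) and the 5 most alike per member. PIA1 was named in addition after its values were seen. Replicates are biological per the labels, and precision is limited by the number of arrays, which have no read depth. Alternatives were quantile normalization, median centring, other pseudocounts, a filter on the dimmest 25%, trended variances, array weights, only the arrays compared, a replicate block and each array left out. Python 3.11.15 made tables and plots.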

Additional observations from a re-analysis of the deposited data

How the results depend on the processing

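The nlp6 responses of WNK7 and AT4G32950 kept their direction and their limma call under every alternative run, including the replicate block (4.02 and 4.1). With each array left out in turn, responses lay between 3.07 and 3.34 in nlp6nlp7, 2.75 and 2.94 in nlp7, 3.92 and 4.14 in nlp6, and 3.60 and 3.73 in Col-0 for WNK7. For AT4G32950 they lay between 3.16 and 3.40, 3.84 and 4.26, and 4.00 and 4.21 in those mutants, and 4.23 and 4.68 in Col-0. The added value moved the WNK7 response most. With 3 added it was 3.50 in nlp6nlp7, 3.08 in nlp7 and 4.01 in Col-0, with 103 added 2.47, 2.30 and 2.92, and with nothing added, a setting chosen after seeing the data, 3.55, 3.12 and 4.07. With 103 added, AT4G32950 had 2.85 in nlp6nlp7. Response differences from Col-0, with arrays left out, lay between -0.59 and -0.32 in nlp6nlp7 and -0.91 and -0.72 in nlp7 for WNK7, and between -1.38 and -0.93 and -0.59 and -0.13 for AT4G32950. Quantile normalization brought the WNK7 difference in nlp6nlp7 to -0.31, outside its range. Array weights brought the AT4G32950 difference in nlp7 to -0.55.

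Counts of called probe sets depend more on the setting. Fitted on the compared groups alone, limma called 1230 in nlp6 (2336 with all arrays), 408 in nlp7 (1163) and 9 response differences of nlp7 (60). Array weights called 2082 responses in nlp6nlp7 (1229) and 278 response differences of it (120). The nlp7 count of 60 was 33 with nothing added, 22 with a replicate block within genotype and 26 without nlp7 replicate 1 at both times, which were chosen after seeing the data. The 2 response differences of nlp6 were 1 under quantile normalization and 0 under median centring, other added values, the filter, trended variances, array weights and both blocks. With single arrays left out, responses called were 860 to 1022 in nlp6nlp7, 855 to 1118 in nlp7, 1836 to 2197 in nlp6 and 1730 to 2000 in Col-0, and response differences 70 to 114, 28 to 59 and 0 to 1 in nlp6nlp7, nlp7 and nlp6. Of the 37 phosphatase probe sets, 5 were called in nlp6nlp7 with 103 added and 1 in nlp7 without its replicate 1, against 2 each. The causes were not tested. Deviations from the group mean correlated between same-numbered arrays of a genotype by -0.00837 to 0.469, the highest being nlp7 replicates 1 (0.469) and 3 (0.338). The main model did not take the numbers as pairs. These values do not settle whether same-numbered arrays share a replicate effect, least of all in nlp7.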
